A study of Sus scrofa with 16 samples.

Results

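CD163, FCER1G, AIF1, TYROBP and GP91-PHOX are genes by which macrophages are commonly recognised in tissue. They are followed here through 16 arrays of pig liver and subcutaneous backfat. Every probe set that the platform annotation assigns to 1 of these 5 symbols was taken, which gave 6 of the 23999 probe sets that were not controls, with 2 for CD163 and 1 for each of the other genes. The 5 genes were chosen by name with their values in these arrays by tissue and feeding level in view, above all the backfat feeding difference. Differences by feeding level and by tissue are therefore described for them without a test, and tests are given for sex, for the sex-by-feeding interaction and for other genes of the same pathways.

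The animals were Iberian pigs, a fat Spanish breed, sampled at 211 days of age. Both sexes were divided between a high feeding level and a low one, a restriction of 20%, and before the restriction all had received 1 pelleted diet. Tissue, sex and feeding level made 8 groups of 2 arrays, so each feeding level within a tissue had 4 arrays, 2 from males and 2 from females. Feeding levels are those of the labels. Females 20 and 21 carry opposite levels in liver and in backfat, so their labels are in doubt. Every feeding difference and interaction below rests on these labels. Castration of the males is not mentioned in the labels, and both tissues were taken whole, without sorting of cells.

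Macrophages arise from circulating monocytes or from precursors seeded before birth, and they take up dead cells, microbes, haemoglobin and iron. In the liver they line the sinusoids as Kupffer cells. In adipose tissue they lie between the fat cells, and their number is known to go up with fat mass in obesity. CD163 is their receptor for haptoglobin-haemoglobin complexes. FCER1G, the Fc receptor gamma chain, and TYROBP, also called DAP12, are membrane adaptors that carry the signal of activating receptors through an immunoreceptor tyrosine-based activation motif (ITAM). AIF1, also called IBA1, binds calcium and actin in membrane ruffles. GP91-PHOX, for which the reference gene table also lists CYBB and NOX2, is the catalytic subunit of the phagocyte NADPH oxidase, which makes superoxide. Several of the 5 are also made by other blood cells: FCER1G is also found in mast cells, TYROBP in natural killer cells and GP91-PHOX in neutrophils.

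All values are expression values on a log2 scale made with GCRMA, a method that corrects array background by probe sequence, in which an increase of 1 is a doubling of signal. A value of 4 was taken as the level above which a probe set counted as detected, and a probe set was tested when at least 2 arrays of a comparison lay above it. All 6 probe sets passed in both tissues. The fat cell gene FABP4 read 14.61 to 15.09 in backfat and 2.64 to 4.37 in liver, and the liver gene ALB 15.06 to 15.28 in liver and 3.62 to 10.09 in backfat. One backfat array, that of female 21 on the high level, stood apart in its controls. Its 7 hybridisation spike controls averaged 7.92 against 8.88 to 9.28 on the other backfat arrays, its 18S ribosomal RNA control read 3.74 against 5.45 to 6.67, and the 3′ minus 5′ difference of its actin control was 2.19 against 2.85 to 3.41. It also had the highest backfat value of each of the 5 genes at their main probe sets, and the part of these controls in the results was not tested. Feeding differences of the members in backfat are given with and without it, those without it with both sexes weighted equally.

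In backfat, all 5 genes stood lower on the low feeding level, by 1.29 to 1.77 on the log2 scale, which is 2.45-fold to 3.41-fold. At the main probe set of each gene, all 4 low-level arrays lay below all 4 high-level arrays. This made 5 of the 6 probe sets, and the second CD163 probe set was the exception. Over all 12686 probe sets tested in backfat, 3.36% had their low-level arrays all below the high-level arrays, and nothing is read from the members' count because this contrast was among the values that chose them. In a whole tissue, fewer macrophages, less of these transcripts per macrophage and a difference in other blood cells that make them cannot be told apart.

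CD163, the scavenger receptor, was measured by 2 probe sets that did not move together. The main probe set, the one of higher mean, read 4.54 and 3.70 in backfat of females 20 and 23 and 4.51 and 4.19 in males 15 and 16 on the low level. On the high level it read 6.53 and 5.39 in females 21 and 22 and 5.76 and 5.16 in males 14 and 17. The groups did not overlap. The means were 4.23 ± 0.39 and 5.71 ± 0.60 (SD, n = 4), a difference of low minus high of -1.48, and -1.19 without female 21. The second CD163 probe set read 4.98, 3.90, 4.72 and 4.20 on the low level and 4.26, 4.0, 5.39 and 4.29 on the high level, in the same order of animals. Its groups overlapped throughout, and its means of 4.45 ± 0.49 and 4.49 ± 0.62 (SD, n = 4) differed by -0.03, and by 0.03 without female 21. When both probe sets were averaged, the difference for CD163 was -0.76.

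The ITAM adaptors differed by a similar amount. FCER1G read 3.94 and 4.70 in low-level females and 4.43 and 4.74 in low-level males, against 7.34 and 5.91 in high-level females and 6.11 and 5.45 in high-level males. The means were 4.46 ± 0.37 and 6.20 ± 0.81 (SD, n = 4), a difference of -1.75, and -1.39 without female 21. The lowest high-level array, male 17 at 5.45, lay above the highest low-level array, male 16 at 4.74. TYROBP read 5.38 and 5.65 in low-level females and 5.82 and 6.26 in low-level males, against 7.49 and 6.80 in high-level females and 7.09 and 6.88 in high-level males. Its means of 5.78 ± 0.37 and 7.07 ± 0.31 (SD, n = 4) differed by -1.29, and by -1.12 without female 21. On the high level TYROBP had the smallest SD of the 5 genes, and its groups did not overlap.

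AIF1, the calcium- and actin-binding protein, read 6.29 and 5.64 in low-level females and 6.92 and 6.81 in low-level males, against 8.56 and 7.62 in high-level females and 7.82 and 7.06 in high-level males. The gap between the groups was narrow, since low-level male 15 at 6.92 lay just under high-level male 17 at 7.06. The means were 6.41 ± 0.59 and 7.76 ± 0.62 (SD, n = 4), a difference of -1.35, and -1.11 without female 21. GP91-PHOX, the oxidase subunit, read 3.77 and 4.13 in low-level females and 3.79 and 4.08 in low-level males, against 6.92 and 5.85 in high-level females and 4.81 and 5.27 in high-level males. Of its low-level arrays, 2 of 4 lay above 4, so its low level was at the limit of detection. Its means of 3.94 ± 0.19 and 5.71 ± 0.91 (SD, n = 4) differed by -1.77, by -1.66 when values under 4 were set to 4, and by -1.51 without female 21.

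**Figure D1:**
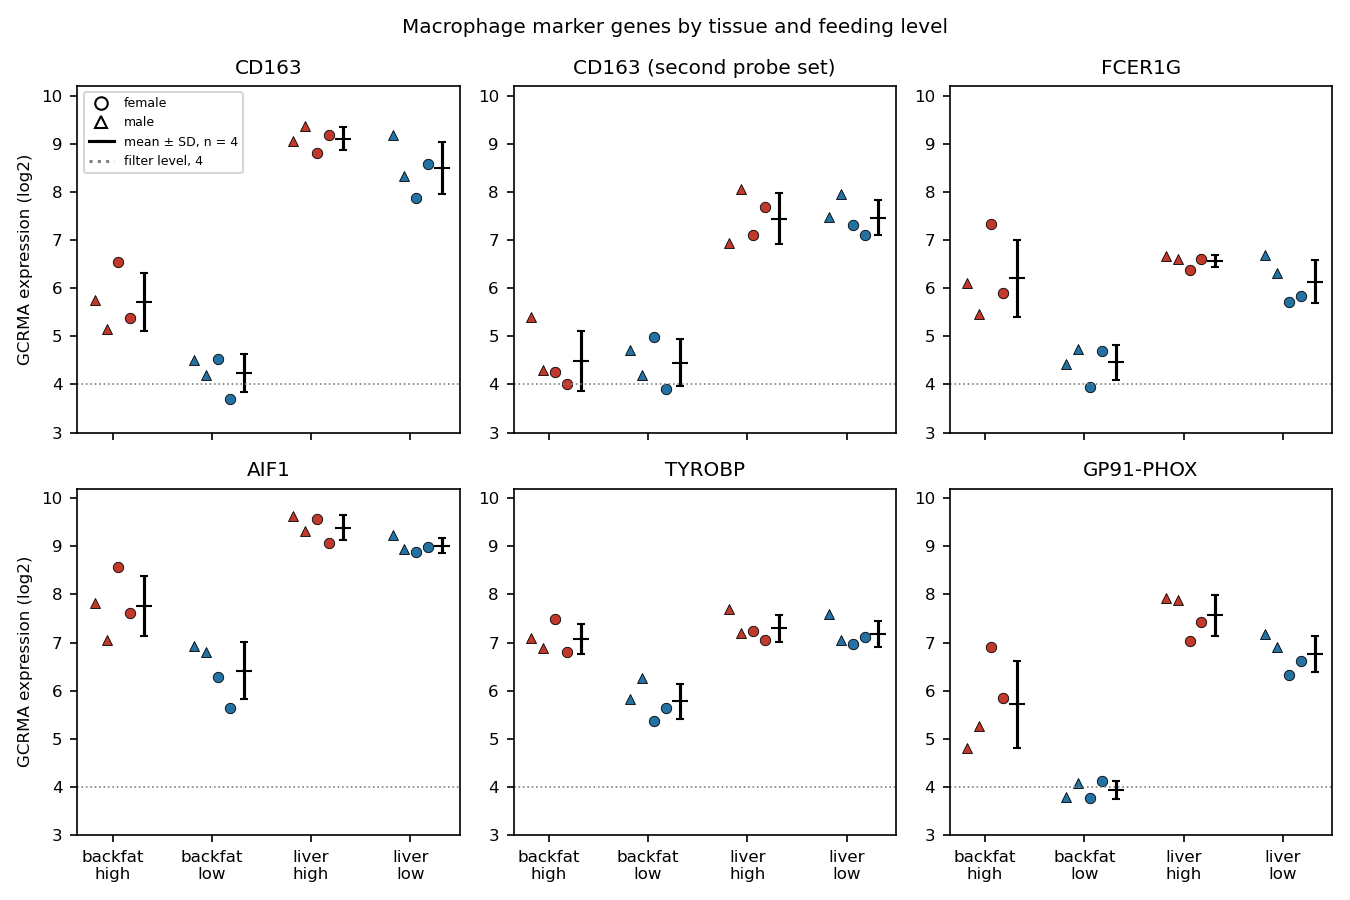
GCRMA expression (log2) of the 6 probe sets, 1 panel each, by tissue and feeding level, with circles for females, triangles for males, and bars for the mean ± SD of 4 arrays. The dotted line is the detection level of 4. In backfat the low-level points (blue) lie below all high-level points (red) in every panel but the second CD163 probe set, while in liver the levels overlap in all 6 panels.

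The 5 genes varied together over the arrays of a tissue, feeding levels included. Over the 8 backfat arrays, Pearson's r between pairs of the 5 genes was 0.81 to 0.95 in 10 pairs, with Spearman's rho of 0.69 to 0.95. These arrays share the 2 feeding levels, and after the mean of each level was taken off, r was 0.45 to 0.87. Without female 21, but with the feeding levels left in, r was 0.65 to 0.95. No r is given with both taken out, so these values do not show that the genes varied together between backfat animals apart from them. Pairs of these genes with the second CD163 probe set had r of -0.30 to 0.23. In liver, r between pairs of the 5 genes was 0.55 to 0.87 over 8 arrays, and 0.26 to 0.85 within feeding levels, while pairs with the second CD163 probe set had r of -0.41 to 0.26. The second CD163 probe set thus followed the other genes in neither tissue. In backfat it averaged 4.47, with 6 of 8 arrays above 4, so there it was near the limit of detection.

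**Figure D2:**
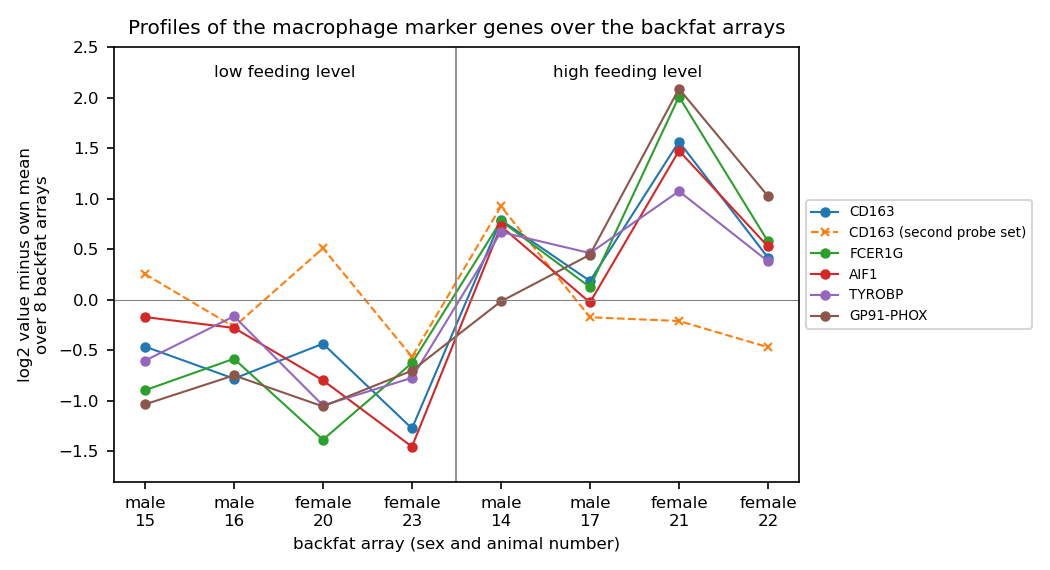
Log2 value of each probe set minus its own mean over the 8 backfat arrays (vertical axis), by array (horizontal axis), with the low feeding level on the left of the vertical line and the high level on the right. The 5 solid lines run close together and peak at female 21, and the dashed line of the second CD163 probe set does not follow them.

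In liver, the same genes differed less between feeding levels, and the levels overlapped for all 6 probe sets. There, 3.11% of the 12617 probe sets tested had all low-level arrays below the high-level arrays. GP91-PHOX had the largest difference. It read 6.33 and 6.62 in low-level females 18 and 21 and 7.18 and 6.91 in low-level males 15 and 16, against 7.02 and 7.43 in high-level females 19 and 20 and 7.93 and 7.89 in high-level males 14 and 17. Its means were 6.76 ± 0.37 and 7.57 ± 0.43 (SD, n = 4), and low minus high was -0.81. Within each sex its low-level arrays lay below its high-level arrays, and over both sexes they overlapped because low-level male 15 at 7.18 lay above high-level female 19 at 7.02.

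The main CD163 probe set read 7.87, 8.58, 9.18 and 8.34 in low-level liver and 8.81, 9.18, 9.06 and 9.37 in high-level liver, in the same order. The difference was -0.61, and low-level male 15 stood among the high-level arrays. FCER1G read 5.71, 5.83, 6.68 and 6.32 against 6.37, 6.60, 6.68 and 6.60, a difference of -0.43. AIF1 read 8.88, 8.99, 9.23 and 8.95 against 9.56, 9.06, 9.62 and 9.31, a difference of -0.38 with overlap at male 15. TYROBP, the adaptor of many activating receptors, read 6.97, 7.12, 7.58 and 7.06 against 7.24, 7.05, 7.69 and 7.19. It differed by -0.11, and the second CD163 probe set, at 7.31, 7.11, 7.47 and 7.96 against 7.10, 7.68, 6.94 and 8.07, by 0.02. With 1 array left out these 2 differences ran from -0.24 to 0.02 and from -0.27 to 0.30, so neither kept its sign. The mean difference over the 5 genes was -0.47 in liver and -1.53 in backfat. No test of the difference between these was run, since the genes were chosen with both in view. An RNA quality measure also moved with feeding level in liver: the 3′ minus 5′ difference of the GAPDH control was 2.20 to 2.85 on the low level and 1.77 to 2.04 on the high level. Its part in these differences was not tested.

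All 6 probe sets stood higher in liver than in backfat. The main CD163 probe set averaged 8.80 ± 0.51 in liver and 4.97 ± 0.92 in backfat (SD, n = 8), 14.2-fold higher in liver, and the second CD163 probe set averaged 7.45 ± 0.42 and 4.47 ± 0.52, 7.92-fold higher. AIF1 averaged 9.20 ± 0.28 in liver and 7.09 ± 0.91 in backfat, 4.32-fold higher. The arrays of the tissues did not overlap for these 3 probe sets, and 18.3% of the 13962 probe sets tested over both tissues had all backfat arrays below all liver arrays. GP91-PHOX averaged 7.16 ± 0.57 in liver and 4.83 ± 1.12 in backfat, 5.05-fold higher. FCER1G averaged 6.35 ± 0.38 and 5.33 ± 1.10, 2.03-fold higher, and TYROBP 7.24 ± 0.26 and 6.42 ± 0.76, 1.76-fold higher. For these 3 genes the tissues overlapped through high-level backfat arrays, and for GP91-PHOX through female 21 alone. For all 6 probe sets the SD over arrays was wider in backfat than in liver.

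The gap between the tissues was wider on the low feeding level for all 5 genes at their main probe sets. This restates that their feeding difference was larger in backfat than in liver, and the genes were chosen with both in view. TYROBP was 1.17-fold higher in liver than in backfat on the high level and 2.65-fold on the low level. For FCER1G these folds were 1.28 and 3.20, and for AIF1 3.08 and 6.05. For the main CD163 probe set they were 10.5 and 19.2, the latter 18.2 with values under 4 set to 4. GP91-PHOX was 3.61-fold higher on the high level and 6.54-fold on the low level with values under 4 set to 4, since 2 of its 4 low-level backfat arrays lay above 4. On the high level the ranges of both adaptors overlapped between the tissues, and those of CD163 did not. For FCER1G this overlap came from backfat female 21 alone, at 7.34. The next high-level backfat array, male 14 at 6.11, lay below the lowest high-level liver array, female 19 at 6.37. For TYROBP, backfat male 14 at 7.09 also lay above liver female 20 at 7.05. All high-level folds here include backfat female 21, and none is given without it. The second CD163 probe set was 7.78-fold and 8.07-fold higher in liver. Animal numbers link the tissues of the 4 males. Backfat minus liver within a male was -3.30, -4.68, -4.15 and -4.21 for CD163 in males 14, 15, 16 and 17, and -0.60, -1.77, -0.80 and -0.31 for TYROBP, of which males 15 and 16 were on the low level.

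Sex had no part in the choice of the genes and was tested with limma, with Benjamini-Hochberg adjustment over all probe sets of a tissue. In backfat 0 of the 6 probe sets passed, and 1 had an unadjusted p below 0.05. Over all probe sets of backfat, 0.11% passed for sex, and 6.04% had an unadjusted p below 0.05. GP91-PHOX averaged 5.17 in females and 4.49 in males, and female minus male was 0.68 ± 0.26 (SE, with an adjusted p of 0.822 by limma), and 0.41 without female 21. The other probe sets differed by -0.37 to 0.29, with adjusted p of 0.881 to 0.954 (limma). With 4 arrays of each sex these intervals are wide, and a p above the threshold does not show equal levels.

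In liver also 0 of the 6 passed, and 2 had an unadjusted p below 0.05. Over all probe sets of liver, 4.53% passed and 19.2% had an unadjusted p below 0.05. All 6 probe sets stood lower in females, by values of -0.63 to -0.16 for female minus male. GP91-PHOX averaged 6.85 in females and 7.48 in males, and female minus male was -0.63 ± 0.15 (SE, with an adjusted p of 0.0733 by limma). It was -0.63 as well in a model without the interaction, in which it passed (adjusted p = 0.0488, limma). FCER1G averaged 6.13 and 6.57, and female minus male was -0.44 ± 0.14 (SE, with an adjusted p of 0.142 by limma). The main CD163 probe set differed by -0.38, with an adjusted p of 0.487 (limma).

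The feeding difference in backfat was wider in females than in males for each of the 5 genes at its main probe set. For AIF1, low minus high was -2.13 in females and -0.58 in males, an interaction of -1.55 ± 0.57 (SE, with an adjusted p of 0.893 by limma). For GP91-PHOX it was -2.43 and -1.11, an interaction of -1.33 ± 0.53 (SE, with an adjusted p of 0.893 by limma). FCER1G differed by -2.30 in females and -1.19 in males, CD163 by -1.84 and -1.11, and TYROBP by -1.64 and -0.95. None of these interactions passed: 0 of the 6 probe sets did in either tissue by limma. AIF1 and GP91-PHOX in backfat were the 2 with an unadjusted p below 0.05, and none was in liver. Over all probe sets the unadjusted share was 5.27% in backfat and 5.43% in liver, and 0% passed in both. Leaving out female 21 brought the interaction of AIF1 to -1.08, that of GP91-PHOX to -0.80, that of FCER1G to -0.39, that of TYROBP to -0.34 and that of CD163 to -0.16. In liver the interactions ran from -0.58 for FCER1G to 0.11 for GP91-PHOX, with adjusted p of 0.898 and above (limma).

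**Figure D3:**
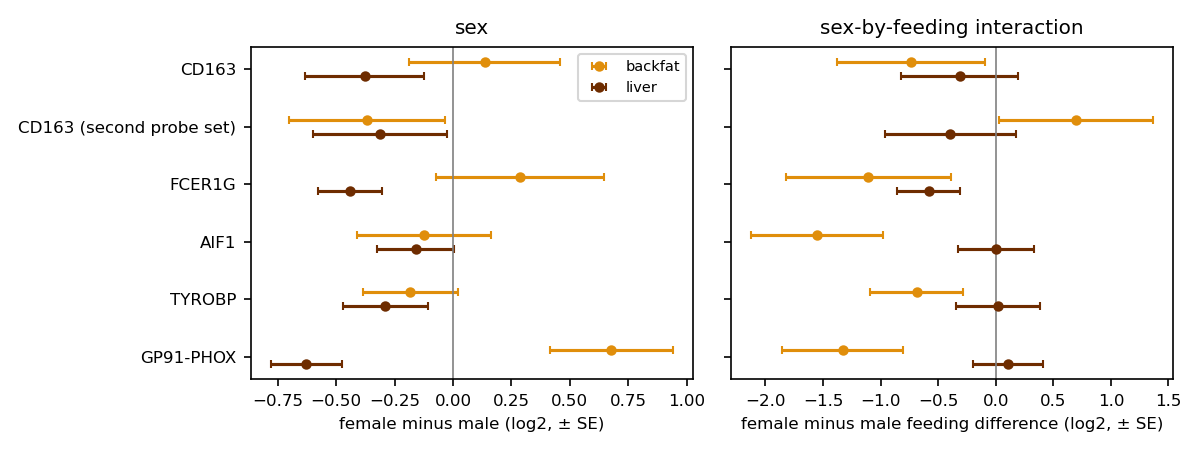
Difference of female minus male (left) and of the female minus the male feeding difference (right) for the 6 probe sets, on the log2 scale with the standard error from limma, in backfat (orange) and liver (brown). In liver all 6 sex differences lie below 0, with GP91-PHOX at -0.63, and in backfat all interactions but that of the second CD163 probe set lie below 0.

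Other genes of the same pathways were read from 5 lists of 137 genes, of which 80 were on the array under their own symbol, 54 were tested in backfat and 56 in liver. The lists were chosen with earlier results of these data known, so the shares below are not independent of those results. In backfat 44 of the 54, or 81.5%, were lower on the low feeding level, against 52.3% of the 4919 named genes tested. Their median difference was -0.48, against -0.01 over all named genes. For 10 of them, 18.5%, all low-level arrays lay below all high-level arrays, against 4.11% of named genes, and for 0 of them all lay above, against 3.52%. By limma 0 passed the adjusted threshold, as did 0 of all 12686 probe sets, of which 11.1% had an unadjusted p below 0.05. At an unadjusted p below 0.05 there were 18 genes with lower values on the low level, 33.3% against 6.28% of named genes, and 1 with higher values. Of the 54, 5 had no low-level array above 4 and so entered the test through the high level, and 3 of these were among the 10 without overlap. Among the 29 genes with a backfat mean above 6, 23 were lower and 4 did not overlap, 13.8% against 4.12% of such named genes. Without female 21, 41 of 53, or 77.4%, were lower, against 49.2% of named genes, and their median was -0.31 against 0.01. There 14, or 26.4%, had lower values at an unadjusted p below 0.05, against 5.56% of named genes.

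Of the partners of GP91-PHOX in the NADPH oxidase, 4 of 5 on the array were tested in backfat, and all 4 values lay below 0 with a median of -0.18. CYBA, the membrane partner p22-phox, averaged 5.37 ± 0.22 on the low level and 6.26 ± 0.64 on the high level (SD, n = 4), with no overlap between the 4 low-level and the 4 high-level arrays. Its difference was -0.89 ± 0.26 (SE, with an adjusted p of 0.306 by limma). The cytosolic subunit NCF1 and the small GTPases RAC2 and RAC1 differed by -0.12, -0.24 and -0.08. NCF1 and RAC2 averaged 4.08 and 3.79 in backfat, each above 4 on 3 arrays, so both were at the limit of detection. RAC1 is present in most cells, and RAC2 is largely restricted to blood cells.

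The ITAM list holds receptors that use FCER1G or TYROBP, kinases and linkers downstream, and also receptors that use neither adaptor. Of its 15 genes on the array 8 were tested in backfat, 7 with values below 0 and a median of -0.54. These 8 include FCGRT, FCGR2B and SIRPA, which use neither adaptor and differed by -0.17, -0.52 and 0.05. The count and median are thus not of adaptor partners alone. FCGR3A, an Fc receptor for immunoglobulin G that pairs with FCER1G, averaged 6.51 ± 0.20 and 7.38 ± 0.54 (SD, n = 4), and low minus high was -0.86 ± 0.27 (SE, with an adjusted p of 0.340 by limma) with overlap. LYN, a kinase that phosphorylates the motif, averaged 3.89 and 4.61 without overlap, with 2 of 4 low-level arrays above 4. VAV1, an exchange factor downstream, was below 4 on all low-level arrays and above 4 on 3 of 4 high-level arrays. On the high level it averaged 4.57 ± 0.92 (SD, n = 4), a mean at least 1.49-fold higher. Its high-level values ran from 3.90 to 5.91, so this fold is near the limit of detection and uneven between arrays. MS4A2, the beta chain of the mast cell receptor that also uses FCER1G, differed by -0.57. In liver the median of this list was -0.04 over 10 genes.

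The list of scavenger receptors and of haem and iron handling, the surroundings of CD163, was divided. Of its 13 genes tested in backfat, 8 had values below 0 and 5 above, and the median was -0.07. MRC1, the macrophage mannose receptor, averaged 4.54 ± 0.37 and 5.64 ± 0.80 (SD, n = 4), and low minus high was -1.10 ± 0.34 (SE, with an adjusted p of 0.328 by limma). SLC11A1, a metal transporter of phagosomes, was below 4 on all low-level arrays and above 4 on 3 of 4 high-level arrays, where it averaged 5.43, at least 2.70-fold higher. HP, which is haptoglobin and part of the ligand of CD163, had a value above 0. It averaged 7.62 ± 2.36 on the low level and 5.08 ± 2.05 on the high level (SD, n = 4), and low minus high was 2.54 ± 1.44 (SE, with an adjusted p of 0.544 by limma), and its values ran from 4.52 to 9.57 and from 3.10 to 7.21. Hepatocyte markers also had values above 0 in these arrays, ALB 2.37 and FGB 2.18 among them, and their part in the value of HP was not tested. CD9, a membrane protein that fat cells also carry, differed by -0.33.

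The list of other monocyte and macrophage markers had the lowest median of the 5 lists. Of 36 genes on the array 22 were tested in backfat, 21 had values below 0, the median was -0.70, and 6 did not overlap. PLEK, a protein kinase C substrate of blood cells, averaged 4.72 ± 0.30 and 6.64 ± 0.99 (SD, n = 4) without overlap, and low minus high was -1.92 ± 0.40 (SE, with an adjusted p of 0.212 by limma). It alone of the 54 genes passed when all 16 arrays entered 1 fit (adjusted p = 0.0276, limma), in which 0.56% of probe sets passed. ITGB2, the beta chain CD18 of the leukocyte integrins, was below 4 on all low-level arrays and averaged 5.23 ± 1.06 on the high level, at least 2.35-fold higher. CTSS, a lysosomal protease of antigen-presenting cells, averaged 9.34 ± 0.13 and 10.61 ± 0.71 (SD, n = 4) without overlap, and its 3 probe sets differed by -1.27, -0.46 and -1.39. CTSD, a lysosomal protease of most cells, averaged 9.05 and 9.90, a difference of -0.85. Genes of the list on the array but not above 4 on 2 backfat arrays included ITGAM, CD86, CCR2, TNF and IL1B.

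Of the transcription factors and growth factors of the lineage, 7 of 9 on the array were tested in backfat, 4 with values below 0 and a median of -0.07. SPI1, or PU.1, the factor that specifies myeloid cells, averaged 4.27 ± 0.39 and 5.14 ± 0.69 (SD, n = 4), and low minus high was -0.87 ± 0.28 (SE, with an adjusted p of 0.345 by limma). IL34, a ligand of the macrophage growth factor receptor, differed by -0.77, and CEBPA, which also acts in fat cells, by -0.38. EGR1, an immediate early gene of many cells, had a value above 0, with means of 11.45 ± 0.26 and 10.23 ± 0.77 (SD, n = 4), and low minus high was 1.21 ± 0.24 (SE, with an adjusted p of 0.212 by limma), and all its 3 probe sets were higher on the low level.

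**Figure D4:**
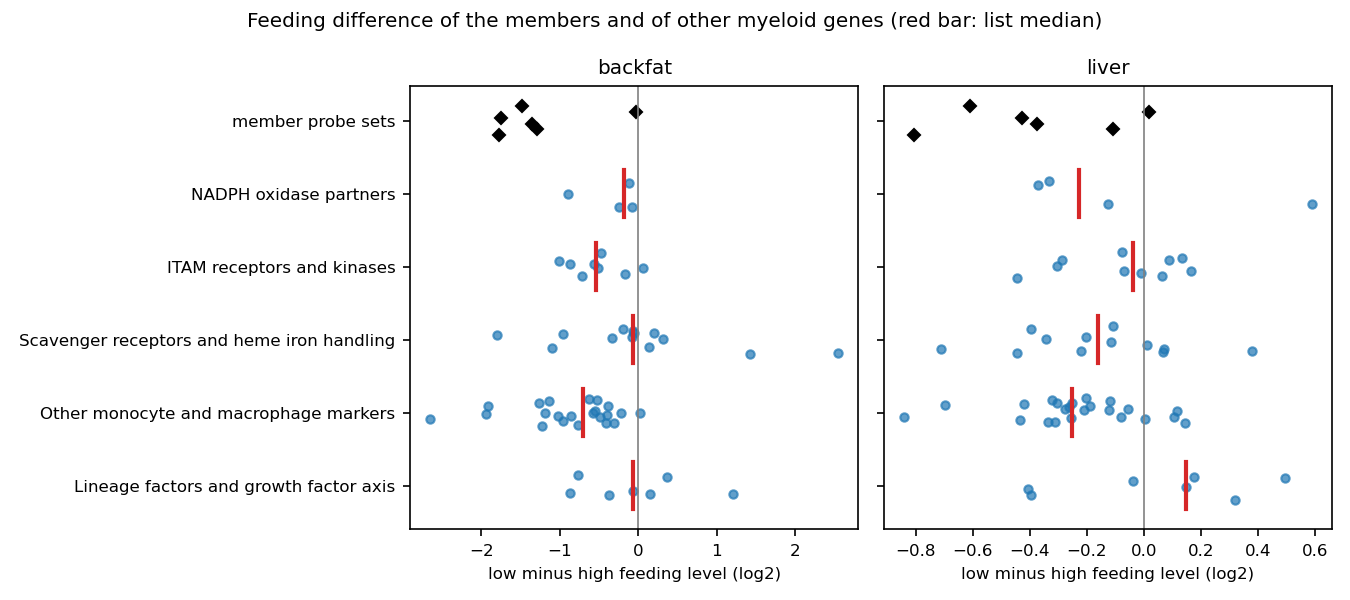
Feeding difference of low minus high (log2) of the 6 member probe sets (black diamonds) and of each tested gene of the 5 lists (blue circles), with the list median as a red bar, in backfat (left) and liver (right, on a narrower axis). In backfat 21 of 22 other monocyte and macrophage markers lie below 0 with a median of -0.70, and the point farthest right in the scavenger list is HP at 2.54.

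In liver 39 of 56 genes of the 5 lists, or 69.6%, were lower on the low feeding level, against 58.2% of named genes, and the median was -0.16 against -0.05. Of these, 2 had all low-level arrays below the high-level arrays, 3.57% against 3.98% of named genes, and 0 had them all above, against 1.62%. At an unadjusted p below 0.05, 5 had lower values, against 7.75% of named genes, and 0 passed the adjusted threshold by limma. For sex, 1 gene of the lists passed in liver: BLVRA, biliverdin reductase A, fell from 7.92 in males to 6.78 in females, a difference of -1.14 (adjusted p = 0.00669, limma). Among named genes of liver 4.65% passed for sex. In backfat 0 genes of the lists did, and 0.0407% of named genes. Between the tissues, 59 genes of the lists were tested by limma over 16 arrays. Of these, 32 were lower in backfat and 16 higher, with a median of -0.70, against 31.8% lower and 45.3% higher of all named genes. Of all probe sets 75.7% differed between the tissues. PLEK was lower in backfat by 3.11, MRC1 by 4.48, LYN by 2.03 and CTSS by 1.92, and CTSD was higher by 1.38.

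The genes whose profile over the 8 backfat arrays was most like the mean of the 5 genes, by Pearson's r among 4914 named genes, were GMFG at 0.986, TMEM50A at 0.981, CD53 at 0.976, CTSB at 0.969, RPF1 at 0.969, CTSS at 0.968, HSBP1 at 0.967, PLEK at 0.966, ITGB2 at 0.964 and CYSLTR2 at 0.961. These arrays share the feeding levels. After the mean of each level was taken off, r was 0.80 to 0.97 for these 10 genes. Without female 21, but with the levels left in, it was 0.93 to 0.97. Of the 54 genes of the lists, 15 had r above 0.8, 27.8% against 5.80% of named genes. The 5 genes were chosen with their backfat feeding difference in view, so this share partly restates the feeding differences above. No share is given after the mean of each level was taken off. CTSB is a lysosomal protease, GMFG an actin regulator of blood cells and CD53 a tetraspanin of leukocytes. In liver the most alike of 4923 genes were MCOLN1 at 0.961, SRGN at 0.953, ABHD13 at 0.940, MRPL11 at 0.925 and MRPL46 at 0.915. There, 4 of 56 genes of the lists had r above 0.8, 7.14% against 1.32% of named genes.

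Markers of other cell types were read in the same backfat arrays. General leukocyte markers also stood lower on the low level: of 7 on the array 5 were tested, all had values below 0, 2 did not overlap and 0 passed by limma, with adjusted p of 0.252 and above and 4 at an unadjusted p below 0.05. Their mean level was 4.82 to 5.40 on the low-level arrays and 5.82 to 6.90 on the high-level arrays. Of the 5, 2 had a backfat mean under 4, CORO1A at 3.97 and RAC2 at 3.79. The lists share genes: RAC2 is also an oxidase partner, and FCGR3A and MS4A2 are in the ITAM list and in a cell type list. LCP1, an actin bundler of leukocytes, averaged 5.34 and 7.20, CD53 5.50 and 7.11, and ARHGDIB 7.68 and 8.35. Their part in the differences of the 5 genes was not tested. T cell markers were mostly not detected: of 13 on the array 12 were not above 4 on 2 backfat arrays, CD3D, CD3E and CD3G among them, and CD247 differed by -0.10. Of natural killer cell markers 2 of 5 were tested, FCGR3A and GNLY at -0.82, and their mean level was 4.82 to 5.35 on the low level and 5.54 to 6.23 on the high level. Mast cells use FCER1G in their receptor for immunoglobulin E, and 3 of 4 mast cell markers were tested, with a mean level of 4.76 to 5.22 and 5.23 to 5.71, with KIT at -0.34 and GATA2 at -0.58. Dendritic cell markers were 2 of 4 tested, FSCN1 at -1.25 and CD83, above 4 on 2 arrays, at -0.76, and their mean level was 4.92 to 5.92 and 5.15 to 6.82. The neutrophil marker S100A9 was the only 1 of 7 tested and differed by -0.36. Of B and plasma cell markers 2 of 4 were tested, XBP1 at 0.07 and JCHAIN at -0.10.

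Markers of the tissue's own cells were read as well. Of 9 adipocyte markers tested 6 had values below 0, with a median of -0.10, a mean level of 11.30 to 11.42 on the low level and 11.35 to 12.05 on the high level, and female 21 highest at 12.05. FABP4 differed by -0.07, LPL by -0.16 and ADIPOQ by -0.28, and LEP, the hormone leptin, stood farthest below 0 at -2.06. For 8 endothelial markers the median was -0.33, PECAM1 differed by -0.36, VWF by 0.08 and CDH5 by -0.64 at its main probe set and -1.16 at another, where the levels did not overlap. For 9 fibroblast and stromal markers the median was -0.15, with DCN at -0.03, FBN1 at -0.20 and PDGFRB at -0.16. Mean levels were 8.22 to 8.77 and 8.56 to 9.36 for the endothelial and 9.81 to 10.05 and 9.39 to 10.31 for the fibroblast list. The erythroid markers HBB and ALAS2 differed by -0.13 and 0.07, and 0 of 8 skeletal muscle markers were above 4 on 2 backfat arrays. Hepatocyte markers had the opposite sign: 11 of 12 tested had values above 0, with a median of 1.28. The levels overlapped for all 12, and of all named genes tested 52.3% had values below 0. Of the 12, 4 had no high-level array above 4 and so entered the test through the low level. A backfat mean under 4 was found for 5, and the median was 0.93 with values under 4 set to 4. Their list had a mean level of 4.88 to 7.83 on the low level and 4.23 to 5.94 on the high level, lowest in female 21. ALB differed by 2.37, RBP4 by 0.40 and APOA1 by -0.22. The part of none of these in the differences of the 5 genes was tested.

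**Figure D5:**
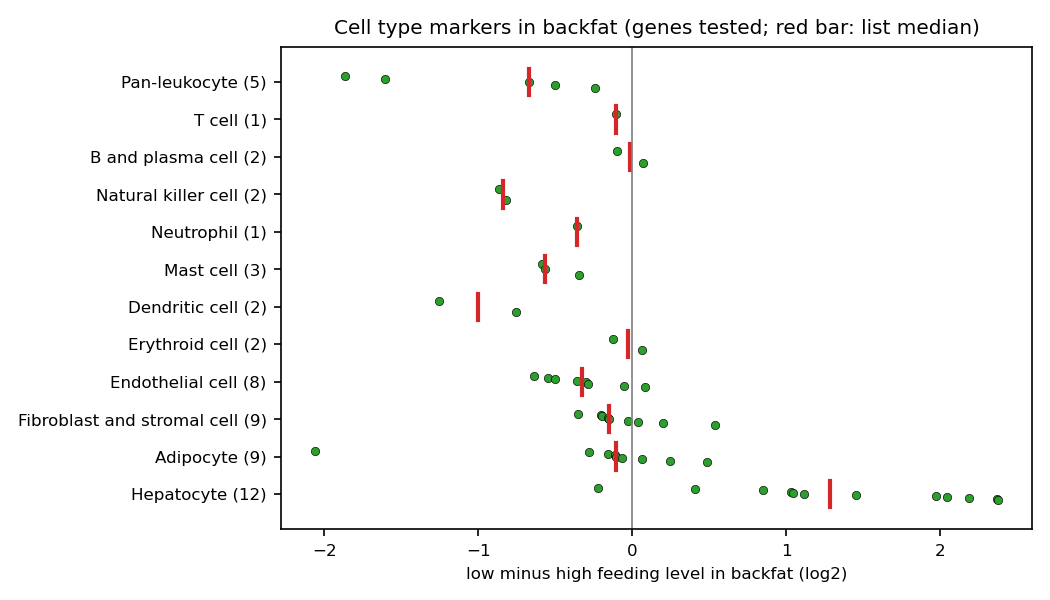
Feeding difference of low minus high in backfat (log2, horizontal axis) of the tested markers of 12 cell types, 1 green point a gene, with the number of genes in brackets and the list median as a red bar. General leukocyte markers lie below 0 with a median of -0.67, adipocyte and fibroblast medians are -0.10 and -0.15, and the hepatocyte median is 1.28.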

How the data were processed

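The authors deposited log2 expression values. The submitters' processing notes name GCRMA, a method of background correction by probe sequence, quantile normalization and summary by probe set. How it was set, and if both tissues went through it jointly, is not given in the sources. It places undetected probe sets near a low floor, where differences depend on the background model. RNA came from whole tissue with a RiboPure kit, per the labels' protocols. Scan dates and batches are not named in the labels, and none was tested.

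Of 24123 probe sets, 124 controls were left out. Of the rest, the platform annotation gave 1 symbol to 10069 and several symbols to 198, while 13732 were unlisted and stayed unnamed. Of the 10069, 9961 matched a RefSeq gene by Entrez ID, and 0 symbols changed. No genome position is given, since the values name no build.

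Probe sets above 4 on at least 2 arrays of a fit were tested, which were 12686 in backfat, 12617 in liver and 13962 in the joint fit. The group means came from lmFit and eBayes of limma 3.58.1 in R 4.3.3, and p-values were adjusted by Benjamini-Hochberg over the probe sets of a fit, with 0.05 as the threshold. The scripts were tested on simulated arrays. The p-values set a difference against the spread within groups of 2 arrays, moderated by eBayes over probe sets, and the number of arrays limits the precision. In the joint fit the 2 arrays of a male were treated as independent. A gene was represented by its probe set of highest mean. Without female 21, member differences weight both sexes equally, and those of list genes are differences of the means of the arrays left. Where all arrays of 1 level lay below 4, the fold is the other level's mean against 4.

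The members and lists were chosen with earlier results of these data known. The text names all member probe sets, the 4 genes of each pathway list with the lowest unadjusted p for feeding in backfat, list genes past the threshold for feeding or sex, the 3 markers of highest backfat mean of each cell type, and the 10 and 5 genes most alike in backfat and liver. LEP, FGB, CD3D, CD3E, CD3G, ITGAM, CD86, CCR2, TNF and IL1B were named after their values were seen. No sequences were used.

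For males 14 to 17 the animal numbers in the labels pair liver with backfat. Deviations from group means correlated between a male's arrays with r = 0.0874 on the high level and r = 0.0549 on the low level. Females carry 6 numbers where the study's design text counts 4 females. Of these, 20 and 21 stand for different feeding levels in liver and in backfat, so their labels are in doubt, and no female was paired.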

Additional observations from a re-analysis of the deposited data

Results flagged for a closer look

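The backfat array of female 21 on the high feeding level lay far below the 7 other backfat arrays in 3 control measures. The mean of its 7 Bio spike controls was 7.92, and the next array was at 8.88. Its 18S ribosomal RNA control was 3.74, and the next array was at 5.45. The 3′ minus 5′ difference of its actin control was 2.19, and the next was 2.85. In all, 68 groups of values of the members and controls were checked in this way and these 3 values were found, where chance marks about 5% of groups.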

How the results depend on the processing

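The feeding difference in backfat of the mean of the 5 genes was -1.53 and ranged from -1.79 without female 22 to -1.26 without female 21, both sexes being weighted equally. In liver it was -0.47, and -0.58 to -0.35 with 1 array left out. The tissue difference was -2.02, and -2.15 to -1.89 with 1 array left out. In the 4 males alone, paired by animal (replicate block), it was -2.29, and that of GP91-PHOX was -2.99 in place of -2.34. These are plain means of the males' differences with the females left out, so they do not show the pairing alone. With all 16 arrays in 1 fit, and with the replicate block of the males added, 1 gene of the pathway lists, PLEK, passed for feeding in backfat in place of 0. The block changed no other call. In the additive model 1 member, GP91-PHOX, passed for sex in liver in place of 0. Averaging the probe sets of CD163 brought its feeding difference in backfat from -1.48 to -0.76 and its sex difference from 0.14 to -0.12. The interaction of AIF1 in liver turned to -0.0066 with quantile normalization. Values that were not called changed sign when single arrays were left out. In liver the interaction of AIF1 ranged from -0.25 to 0.25, of TYROBP from -0.24 to 0.28, of GP91-PHOX from -0.10 to 0.31, of CD163 from -0.74 to 0.11 and of its second probe set from -0.96 to 0.17. In backfat the sex difference of AIF1 ranged from -0.36 to 0.11, of CD163 from -0.15 to 0.42 and of FCER1G from -0.070 to 0.65. The count of 48 list genes called between the tissues was 42 to 51 over 26 alternatives. Low values near 4 limit the backfat folds of GP91-PHOX, and also those of CD163 and FCER1G. On the low level the main CD163 probe set averaged 4.23 and FCER1G 4.46, each with 3 of 4 arrays above 4.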
